A study of Mus musculus with 24 samples.

Results

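Small nucleolar RNA (snoRNA) host gene transcripts are the long non-coding RNAs left over when snoRNAs are cut out of the introns of their precursors. The 10 transcripts described here, Gas5, Snhg1, Snhg3, Snhg5, Snhg6, Snhg8, Snhg12, Snhg15, Snhg17 and Zfas1, were taken by name from the 41710 genes of each of the 2 deposited expression tables, and all 10 had a row in both tables and passed the filter on low values. Values are CPM, the depth-scaled reads on a gene after a scaling between libraries made by the authors.

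The 24 libraries came from murine embryonic fibroblasts (MEFs), in 8 groups of 3. The MEFs were made from E14-E16 embryos, with the cells of at least 6 embryos pooled, and carried loxP-flanked Myc and/or Mlx alleles together with a ROSA26-driven Cre-estrogen receptor fusion, which 500 nM 4-hydroxytamoxifen activates. Excision gave cells without Myc (MycKO), without Mlx (MlxKO) or without both (DKO), and WT denotes MEFs with intact loci, for which the study used a single line as control in most experiments. One table holds primary MEFs of these 4 genotypes. The other holds MEFs of the same 4 genotypes carrying a lentiviral SV40 T-antigen, selected with blasticidin (immortalized MEFs). The study kept its immortalized WT controls in medium without 4-hydroxytamoxifen. Whether the primary WT libraries came from exposed cells is not clear from the sources used here. Where WT cells were not exposed, loss of a gene cannot be told apart from exposure and Cre activation. Each knockout came from its own floxed MEF line, and the sources used here do not say which line gave the WT libraries. Where WT came from another line than the knockout, loss of a gene cannot be told apart from line of origin. The 3 libraries of a group were made from triplicate RNAs, and the labels do not say that these came from separately derived lines, so p-values measure only the spread between these samples, which may be technical. The tables were tested separately, since they were normalized separately and differ in the presence of T-antigen.

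Myc binds DNA as a dimer with Max, at E-boxes whose best known form is CACGTG, and is known for raising the transcription of genes of ribosome production. Mlx is the partner of MondoA, ChREBP and several Mxd proteins, which bind related sites. snoRNAs guide the chemical modification of ribosomal RNA: those with boxes C and D direct ribose methylation and those with boxes H and ACA direct pseudouridine formation. In vertebrates most are released from introns, and the spliced exons of the non-coding hosts are typically short-lived, many being degraded by nonsense-mediated decay as they are translated. Gas5 takes its name, growth arrest-specific 5, from its accumulation in fibroblasts that stop dividing. Many host RNAs begin with a run of pyrimidines, the 5′ terminal oligopyrimidine that is also typical of ribosomal protein mRNAs.

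The GENCODE annotation of GRCm39, the build named in the submitters' processing notes, placed 34 snoRNA genes inside the 10 hosts on the host's strand, counting overlapping annotations of one snoRNA once. Gas5 held 9 of them and Snhg1 held 8, whereas Snhg6, Snhg8 and Snhg15 held 1 each. Shown here are 6 of these snoRNAs, read 5′ to 3′ from the GRCm39 genome, because they are the RNAs that the hosts carry and that the libraries did not capture. Capitals mark box C (searched as NTGATGA in the first 20 bases) and box D (CTGA in the last 15 bases), or the ACA that stands 3 bases before the end of an H/ACA snoRNA.

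Snord47, in Gas5, chr1:160865652-160865728, plus strand: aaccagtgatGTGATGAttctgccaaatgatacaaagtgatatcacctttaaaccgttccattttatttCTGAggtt
Snord50a, in Snhg5, chr9:88403582-88403653, minus strand: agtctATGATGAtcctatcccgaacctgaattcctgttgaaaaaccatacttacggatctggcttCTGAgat
Snord87, in Snhg6, chr1:10012688-10012774, minus strand: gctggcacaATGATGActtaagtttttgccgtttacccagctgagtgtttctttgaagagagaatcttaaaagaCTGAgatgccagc
Snord12, in Zfas1, chr2:166907196-166907285, plus strand: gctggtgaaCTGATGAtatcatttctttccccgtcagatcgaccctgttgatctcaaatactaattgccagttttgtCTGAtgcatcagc
Snora24, in Snhg8, chr3:123301586-123301715, minus strand: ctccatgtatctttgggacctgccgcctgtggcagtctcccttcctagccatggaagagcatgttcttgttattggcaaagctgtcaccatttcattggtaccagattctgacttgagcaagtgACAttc
Snora9, in Snhg15, chr11:6478033-6478165, minus strand: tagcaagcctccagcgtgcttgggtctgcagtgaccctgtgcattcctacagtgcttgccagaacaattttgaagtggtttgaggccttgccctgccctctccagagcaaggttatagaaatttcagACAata

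Across the 36 annotated snoRNA genes, counting overlapping annotations separately, both boxes C and D were found in 20 and the ACA in 7. The other 9 had neither the ACA nor both boxes by these searches. Some of the 9, such as Snord78 and Snord22, held box D without box C. The annotated sequences of the 3 snoRNAs in Snhg17 end in ACA itself, where this search does not look, so they are among the 9. Boxes C and D marked snoRNAs of Gas5, Snhg1, Snhg5, Snhg6, Snhg12 and Zfas1, and the ACA marked those of Snhg3, Snhg8, Snhg12 and Snhg15. All 36 have a row in the deposited tables. Of the 36, 35 had 0 reads in all 24 libraries, and the remaining row, Snora73a of Snhg3, held 9 reads in the 12 primary libraries and 1 read in the 12 immortalized libraries. The hosts together held 59445 reads in the primary and 43539 reads in the immortalized libraries. The libraries were made from RNA bound to poly-T beads, so the values below are those of the polyadenylated host transcripts and give no measure of the snoRNAs.

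The hosts differ in the sequence at their start. RefSeq promoter windows (250 bases before to 50 after the annotated first base, GRCm38.p6) were held for 9 of the 10 hosts, in 11 windows, Snhg6 having none. The stretch from 50 bases before the first base to 50 bases from it is shown for 5 hosts that differ in their first bases and in the E-box. Capitals mark TATA lying from 40 to 21 bases before the first base, the unbroken run of C or T from the first base, and CACGTG.

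Gas5, chr1:161035116-161035215, plus strand: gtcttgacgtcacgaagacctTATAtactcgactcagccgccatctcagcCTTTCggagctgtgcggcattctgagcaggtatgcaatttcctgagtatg
Snhg1, chr19:8723437-8723536, plus strand: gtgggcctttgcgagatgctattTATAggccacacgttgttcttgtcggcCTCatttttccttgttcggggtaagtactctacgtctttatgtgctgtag
Snhg8, chr3:123508287-123508386, minus strand: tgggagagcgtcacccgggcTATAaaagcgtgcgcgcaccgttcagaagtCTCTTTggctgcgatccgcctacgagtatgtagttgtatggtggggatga
Snhg12, chr4:132308628-132308727, plus strand: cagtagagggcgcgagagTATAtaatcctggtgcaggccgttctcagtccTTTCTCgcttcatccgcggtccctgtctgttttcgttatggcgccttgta
Snhg15, chr11:6528711-6528810, minus strand: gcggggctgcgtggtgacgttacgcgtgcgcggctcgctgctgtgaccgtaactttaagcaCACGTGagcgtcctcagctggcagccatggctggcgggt

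CACGTG, which reads the same on both strands, was found in the 300-base window of Snhg15 alone among the 9 hosts, beginning at base 12 of the transcript, while 7.15% of all 32851 windows hold it. The related CACGCG, on either strand, was found in 4 of the 11 windows, those of Snhg5, Snhg15 and Snhg17, against 9.27% of all windows. A run of at least 4 pyrimidines from the first base was found for Gas5, Snhg8, Snhg12 and Snhg17, in 4 of the 11 windows, against 6.86% of all windows. This depends on the annotated first base. A run of 5 starting within the first 10 bases was found in 7 of the 11 windows, against 23.5% of all windows. The added hosts were Snhg1, Snhg3 and Snhg5. TATA in the stretch named above was found for Gas5, Snhg1, Snhg8 and Snhg12, in 4 of the 11 windows, against 5.34% of all windows. Gas5 and Snhg17 each have another window, not shown, without a run from the first base, and that of Gas5 also lacks such a TATA. These motifs were chosen after the sequences had been read, and a match is a description of letters, not of binding.

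The reads on genes ranged from 15986856 to 20966163 per library, and each host had at least 26 reads in every library. The 8 fibroblast markers summed to between 8827 and 44449 CPM in all 24 libraries. Myc, as a check of the labels, was at 89.8 to 100.1 CPM in primary WT and 25.8 to 26.8 CPM in primary MycKO MEFs, and Mlx at 20.5 to 26.0 CPM in primary WT and 13.01 to 13.97 CPM in primary MlxKO MEFs. In primary DKO MEFs Myc and Mlx had log2 fold changes of -2.08 and -1.02. In immortalized MEFs Myc was at 9.96 to 17.2 CPM in MycKO and 4.25 to 8.02 CPM in DKO MEFs, log2 fold changes of -2.41 and -3.38, and that of Mlx -0.71 in MlxKO MEFs. Mlx in immortalized DKO MEFs, at 14.5 to 18.04 CPM against 20.5 to 25.1 CPM in WT, did not pass the test (-0.44, adjusted p = 0.0694). In the immortalized table, WT library 4 stood apart: its correlation with the other 2 WT libraries over 12880 genes was 0.943 and 0.950, where these 2 correlated at 0.992 with each other. Its Myc level was 177 CPM, against 48.1 and 39.9 CPM in the others. MycKO library 9 of the immortalized table also departed somewhat from its group, with correlations of 0.983 and 0.985 against 0.996 between the other 2. The main counts on these groups are given with and without both libraries.

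The first comparison asked what loss of Myc does in primary MEFs. Of the 10 hosts, 9 fell in primary MycKO MEFs and none rose, where 21.9% of all genes tested were called lower. Calls were made by limma on log2(CPM + 1), at a Benjamini-Hochberg adjusted p under 0.05 over 13101 genes. The falls of the 9, from 28.7% to 49.3%, are on the CPM + 1 scale, which understates falls in CPM, most for low genes. All 10 had every MycKO library below every WT library, as had 24.6% of all genes. The median log2 fold change of the 10 was -0.64, beside 0.00 over all genes. Added up, the 10 hosts came to 340.4 ± 12.3 CPM in WT and 213 ± 4.64 CPM in MycKO MEFs (mean ± SD, n = 3 each).

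Snhg1, the host of 8 snoRNAs on chromosome 19, had the largest fall. It stood at 58.0, 47.6 and 61.8 CPM in primary WT, 57.9, 59.7 and 59.4 CPM in MlxKO, 27.2, 30.1 and 25.8 CPM in MycKO, and 22.5, 24.2 and 27.7 CPM in DKO MEFs. The MycKO and DKO libraries lay below all WT and MlxKO libraries, which overlapped. The log2 fold change in MycKO against WT was -0.98 (SE 0.0985, limma adjusted p = 8.21e-07). Of the 50-base stretches of the Snhg1 transcript, 38.0% also occur on the opposite strand in transcripts of Slc3a2, the heavy chain of amino acid transporters, and the sources used here do not say whether reads were counted by strand. For Slc3a2 itself the log2 fold change was -0.12 (adjusted p = 0.200).

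Gas5, the most abundant of the 10, made up 33.3% to 37.2% of their summed CPM in primary WT MEFs. Its levels were 131, 120.0 and 114 CPM in WT, 117, 110.3 and 117 CPM in MlxKO, 81.5, 75.5 and 77.8 CPM in MycKO, and 63.5, 76.5 and 74.1 CPM in DKO MEFs. Both genotypes without Myc were below both genotypes with Myc, without overlap. The log2 fold change in MycKO against WT was -0.63 (SE 0.0755, adjusted p = 5.49e-06).

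The other hosts of box C/D snoRNAs moved the same way. Snhg5 went from 26.6, 25.5 and 28.4 CPM in WT to 16.4, 16.2 and 15.8 CPM in MycKO MEFs, a log2 fold change of -0.70 (SE 0.0818, adjusted p = 3.91e-06). Zfas1, which carries Snord12 and related snoRNAs, went from 22.4, 23.0 and 20.3 CPM to 13.03, 11.5 and 15.6 CPM, a log2 fold change of -0.68 (SE 0.132, adjusted p = 0.000548). Snhg6 went from 35.3, 30.4 and 44.2 CPM to 24.8, 26.2 and 25.5 CPM, a log2 fold change of -0.49 (SE 0.118, adjusted p = 0.00325). In each of the 3 the groups did not overlap, with the narrowest gap in Snhg6.

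Among the hosts of H/ACA snoRNAs, Snhg8, which carries Snora24, went from 11.1, 10.0 and 9.23 CPM in WT to 6.82, 4.38 and 7.22 CPM in MycKO MEFs, a log2 fold change of -0.66 (SE 0.158, adjusted p = 0.00286). Snhg15, which carries Snora9 and has the CACGTG shown above, went from 14.3, 14.01 and 13.97 CPM to 9.31, 9.35 and 10.5 CPM, a log2 fold change of -0.50 (SE 0.108, adjusted p = 0.00139). In both hosts the MycKO libraries lay below the WT libraries. Snhg17, whose annotated snoRNAs end in ACA itself and so lie outside the search above, fell by 0.58 (SE 0.113, adjusted p = 0.000542) on the log2 scale. Snhg3, the host of Snora73a and Snora73b, fell by 0.76 (SE 0.14, adjusted p = 0.000351). The value of Snhg3 is uncertain, since all of its annotated 332-base transcript also occurs in transcripts of Rcc1, the chromatin-bound exchange factor of Ran, on the same strand. Rcc1 fell by 0.78 (adjusted p = 6.67e-07).

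Snhg12, the host of both kinds of snoRNA, was the exception. It stood at 13.996, 14.4 and 14.3 CPM in WT and 11.6, 10.5 and 13.3 CPM in MycKO MEFs, with a log2 fold change of -0.26 (95% interval -0.53 to 0.01, adjusted p = 0.109). Its 3 MycKO libraries were all below its 3 WT libraries, but the difference did not pass the test.

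**Figure D1:**
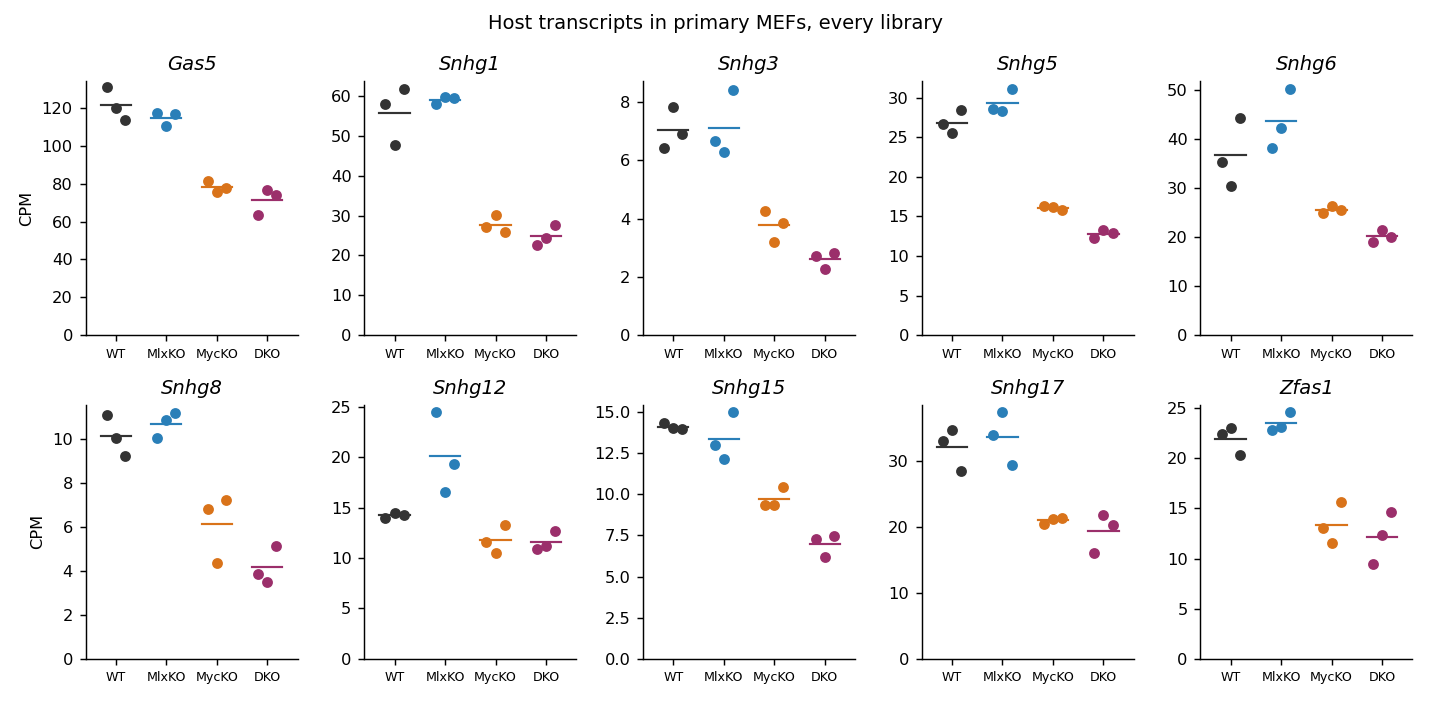
CPM (vertical axis, from 0) of each host in the 12 libraries of primary MEFs; points are libraries and bars the means of 3. In MycKO and DKO MEFs all points of all 10 hosts lie below all WT points, whereas MlxKO points overlap WT points for 9 hosts and lie above them for Snhg12.

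The second comparison asked what loss of Mlx alone does. In primary MEFs 1 of the 10 hosts passed the test, Snhg12, which was higher, where 3.75% of all genes were called higher and 5.14% lower. Snhg12 stood at 24.5, 16.6 and 19.4 CPM in MlxKO MEFs, all above the WT range of 13.996 to 14.4 CPM, with a log2 fold change of 0.45 (SE 0.126, adjusted p = 0.0322), and the call was lost on leaving out WT library 1 or 2 or MlxKO library 5 or 7. The other 9 had log2 fold changes from -0.08 for Gas5 to 0.25 for Snhg6. The 95% interval ran from -0.24 to 0.08 for Gas5, from -0.12 to 0.30 for Snhg1 and, the widest of the 9, from -0.26 to 0.41 for Snhg8. The 10 hosts came to 355 ± 9.37 CPM together.

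The third comparison asked what is added when both genes are lost. In primary DKO MEFs 9 of the 10 hosts were lower than in WT, again all but Snhg12, where 25.5% of all genes were called lower. These falls were 38.6% to 55.3% on the CPM + 1 scale. In CPM, the mean of Snhg3 went from 7.05 in WT to 2.60 in DKO MEFs. All 10 had DKO libraries wholly below WT libraries, as had 30.8% of all genes. The median of the 10 was -0.87 and their sum was 186 ± 16.1 CPM. Snhg3 had the lowest value, at -1.16 (SE 0.14, adjusted p = 4.1e-06), followed by Snhg1 at -1.13 and Snhg8 at -1.12. Against MlxKO MEFs all 10 hosts were lower in DKO MEFs, Snhg12 included at -0.73 (SE 0.126, adjusted p = 0.000164), where 25.9% of all genes were called lower.

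Compared with MycKO MEFs directly, DKO MEFs had lower levels of 4 hosts, Snhg15, Snhg5, Snhg8 and Snhg3, where 11% of all genes were called lower. Snhg15 stood at 7.31, 6.18 and 7.49 CPM in DKO, below the 9.31 to 10.5 CPM of MycKO MEFs, a log2 fold change of -0.42 (SE 0.108, adjusted p = 0.00905). Snhg5 stood at 12.3, 13.3 and 12.9 CPM in DKO, below the 15.8 to 16.4 CPM of MycKO MEFs, a log2 fold change of -0.31 (SE 0.0818, adjusted p = 0.0112). The calls of Snhg8 and Snhg3 were close to the threshold, with adjusted p = 0.0493 and 0.04998. All 10 estimates of this comparison were below 0, the smallest being that of Snhg12 at -0.02. The number called ranged from 1 to 4 when single libraries were left out, and without DKO library 13 or 14 it was 1.

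Whether the effect of losing Myc depended on Mlx was tested as an interaction, the log2 change with Myc loss in cells without Mlx minus that in cells with Mlx. It was negative and passed the test for Snhg6 at -0.58 (SE 0.167, adjusted p = 0.0285) and Snhg5 at -0.44 (SE 0.116, adjusted p = 0.0173), where 6.07% of all genes were called in that direction. Snhg6 stood at 38.2, 42.2 and 50.2 CPM in MlxKO and 19.0, 21.4 and 19.98 CPM in DKO MEFs, so that its levels with and without Myc lay further apart without Mlx than with it. Without WT library 2 neither call remained, and without MycKO library 10 the number called was 4.

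**Figure D2:**
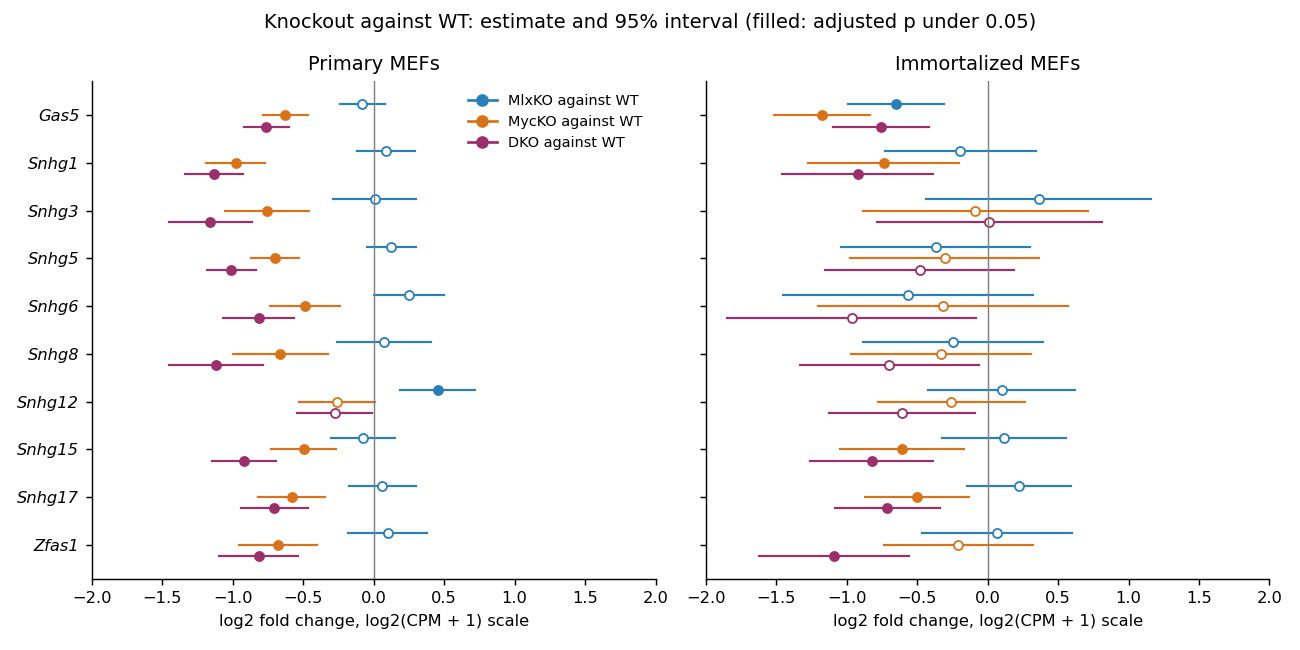
Log2 fold change against WT (horizontal axis, on the log2(CPM + 1) scale) of each host with its 95% interval, for MlxKO, MycKO and DKO MEFs, primary on the left and immortalized on the right; filled points passed an adjusted p under 0.05. In primary MEFs the MycKO intervals of 9 hosts and the DKO intervals of all 10 lie wholly below 0, and in immortalized MEFs the intervals are wider, with Gas5 below 0 in all 3 knockouts.

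In immortalized MEFs fewer hosts passed the test. Immortalized MycKO MEFs had lower levels of 4 of the 10, Gas5, Snhg1, Snhg15 and Snhg17, and higher levels of none, where 23.5% of all genes were called lower. All 4 are among the 9 that were lower in primary MycKO MEFs. The median of the 10 was -0.32 beside 0.00 over all genes, and it rested on single libraries: it was -0.14 without WT library 4 or without MycKO library 10, -0.53 without WT library 3, -0.52 without WT library 2, -0.64 without MycKO library 9 and -0.45 without both libraries that stand apart. Of the 10, 3 had libraries that did not overlap, against 25.1% of all genes. WT library 4 held the highest WT level of 9 hosts, all but Gas5, and MycKO library 9 held the highest MycKO level of all 10.

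Gas5 was the host called in each of the 3 knockouts in immortalized MEFs. It stood at 96.4, 88.1 and 89.1 CPM in WT, 64.6, 54.0 and 55.3 CPM in MlxKO, 51.4, 36.3 and 33.7 CPM in MycKO, and 51.1, 47.5 and 63.0 CPM in DKO MEFs. All knockout libraries were below all WT libraries, with MycKO the lowest on average and overlapping DKO. The log2 fold changes against WT were -1.18 (SE 0.157, adjusted p = 9.93e-05) for MycKO, -0.65 (SE 0.157, adjusted p = 0.00746) for MlxKO and -0.76 (SE 0.157, adjusted p = 0.00677) for DKO MEFs. Gas5 was the only host of the 10 called in immortalized MlxKO MEFs, where 19.9% of all genes were called lower. The interaction was 1.07 (SE 0.222, adjusted p = 0.00221, with 23.7% of all genes called in that direction), since Gas5 was lower with Myc loss where Mlx was present and differed by -0.11 (95% interval -0.45 to 0.23) between DKO and MlxKO MEFs. Without both libraries the interaction was 1.26 (adjusted p = 4.23e-05, 29.6% of all genes).

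Snhg1 stood at 46.0, 41.7 and 75.2 CPM in immortalized WT, 48.2, 43.6 and 45.3 CPM in MlxKO, 46.9, 23.9 and 26.6 CPM in MycKO, and 25.8, 24.9 and 31.4 CPM in DKO MEFs. The highest WT and the highest MycKO value belong to the 2 libraries that stand apart, and without them the MycKO libraries were below the WT libraries. Its log2 fold change in MycKO was -0.74 (SE 0.247, adjusted p = 0.0271) with all libraries and -0.77 (SE 0.128, adjusted p = 0.000217) without both, and it did not pass without WT library 4 alone (-0.48, adjusted p = 0.0719). Snhg5 also moved with the choice of libraries: its WT values were 16.7, 16.3 and 45.5 CPM, and its log2 fold change in DKO MEFs went from -0.48 (adjusted p = 0.283) to -0.01 (95% interval -0.27 to 0.24) without both.

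**Figure D3:**
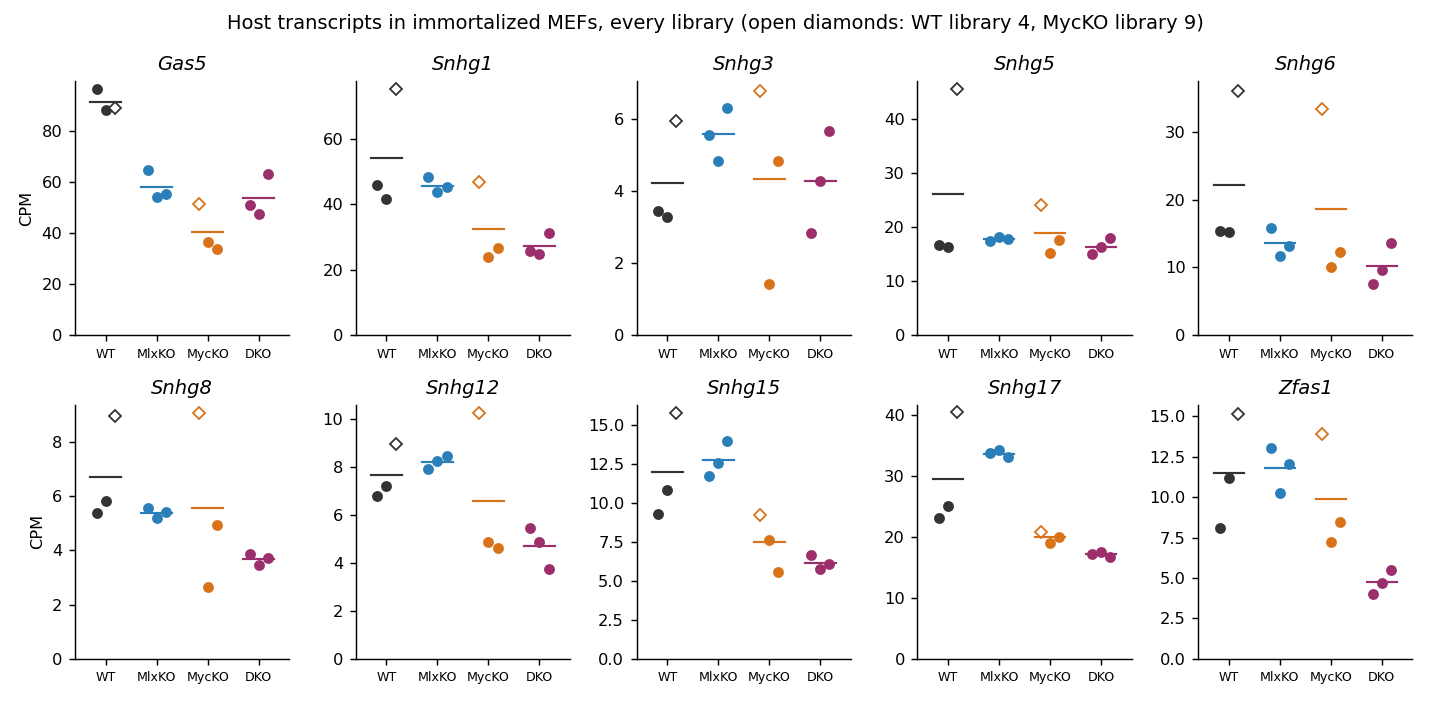
CPM (vertical axis, from 0) of each host in the 12 libraries of immortalized MEFs; points are libraries, bars the means of 3, and open diamonds WT library 4 and MycKO library 9. The diamond is the highest WT point for 9 hosts and the highest MycKO point for all 10.

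In immortalized DKO MEFs 5 of the 10 hosts were lower than in WT, Gas5, Snhg1, Snhg15, Snhg17 and Zfas1, where 8.51% of all genes were called lower. Of the 10, 8 had libraries wholly below those of WT, against 18% of all genes, and the median was -0.73, or -0.54 without both libraries. Zfas1 stood at 8.08, 11.2 and 15.2 CPM in WT, 13.01, 10.3 and 12.0 CPM in MlxKO, 13.9, 7.25 and 8.44 CPM in MycKO, and 4.04, 4.69 and 5.47 CPM in DKO MEFs. Its DKO libraries were below every library of the other 3 genotypes. The log2 fold change of Zfas1 was -1.09 (SE 0.244, adjusted p = 0.0102) against WT, -1.16 (adjusted p = 0.0043) against MlxKO and -0.88 (adjusted p = 0.0166) against MycKO MEFs, the last being the only call of the 10 between DKO and MycKO, where 14.6% of all genes were called lower. Its interaction was -0.95 (SE 0.345, adjusted p = 0.039, with 23.8% of all genes called in that direction). Without MycKO library 9 alone neither the difference from MycKO MEFs (-0.63, adjusted p = 0.0662) nor the interaction (-0.70, adjusted p = 0.0824) passed the test, and without both libraries both did (-0.63, adjusted p = 0.00937, with 20.8% of all genes called lower, and -0.90, adjusted p = 0.00568, with 30.4%).

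Snhg15 and Snhg17 were lower in immortalized cells without Myc in each contrast with cells that had it. Snhg15 stood at 9.25, 10.8 and 15.8 CPM in WT, 9.20, 7.58 and 5.57 CPM in MycKO, and 6.65, 5.77 and 6.07 CPM in DKO MEFs, with log2 fold changes of -0.61 (adjusted p = 0.026) and -0.82 (adjusted p = 0.0154). Snhg17 stood at 23.1, 25.1 and 40.5 CPM in WT, 33.8, 34.2 and 33.0 CPM in MlxKO, 20.9, 19.0 and 19.98 CPM in MycKO, and 17.2, 17.5 and 16.6 CPM in DKO MEFs. Its MycKO and DKO libraries were below all others. Without WT library 4 alone neither Snhg15 (-0.40, adjusted p = 0.0687) nor Snhg17 (-0.26, adjusted p = 0.0583) passed the test in MycKO MEFs. Against MlxKO MEFs, immortalized DKO MEFs had lower levels of 5 hosts, Snhg1, Snhg12, Snhg15, Snhg17 and Zfas1, where 13.9% of all genes were called lower, and 6 without both libraries, with Snhg8 added (24.1% of all genes).

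Leaving out WT library 4 and MycKO library 9 together, an alternative chosen after the data had been seen, gave 6 hosts lower in immortalized MycKO MEFs (27% of all genes), namely Gas5, Snhg1, Snhg8, Snhg12, Snhg15 and Snhg17. It gave 7 lower in DKO MEFs (13.9% of all genes), namely the 5 above with Snhg6 and Snhg12. In MlxKO MEFs Gas5 was lower (27.3% of all genes), and Snhg17 was higher by 0.47 on the log2 scale (adjusted p = 0.00187, 26.8% of all genes). Gas5 was then also higher in DKO than in MycKO MEFs, by 0.60 (adjusted p = 0.00153, 19.9% of all genes). Without WT library 4 alone the number called in MycKO MEFs was 1, and without MycKO library 9 alone it was 6.

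**Figure D4:**
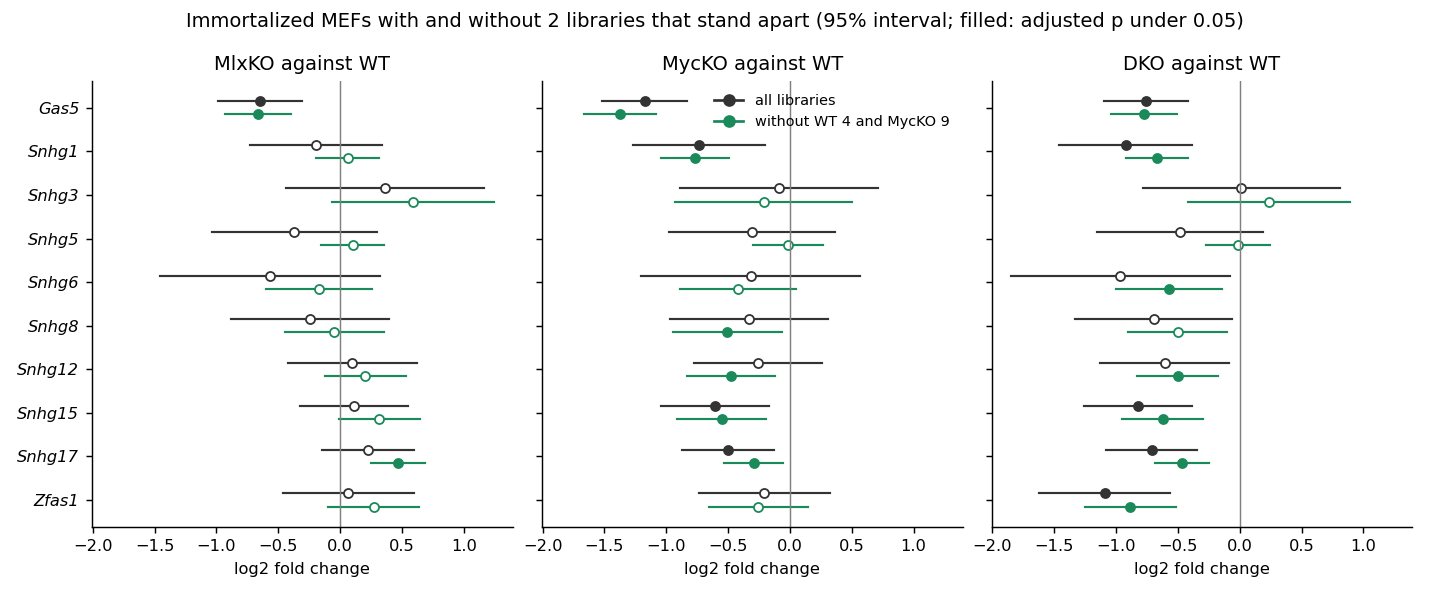
Log2 fold change against WT (horizontal axis, on the log2(CPM + 1) scale) with 95% interval of each host in immortalized MEFs, with all 12 libraries (dark) and without WT library 4 and MycKO library 9 (green); filled points passed an adjusted p under 0.05. The DKO estimate of Snhg5 moves from -0.48 to -0.01.

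Gene groups related to the hosts were described beside them. All shares of lower calls over all genes in these comparisons are those given above. The shares of higher calls were 20.4% in primary MycKO, 24% in primary DKO, 24.4% in immortalized MycKO, 19.1% in immortalized MlxKO and 10.4% in immortalized DKO MEFs. Without WT library 4 and MycKO library 9 they were 27.8%, 26.8% and 15.5% in immortalized MycKO, MlxKO and DKO MEFs. Of 22 protein-coding genes with snoRNAs in their introns, 20 were lower in primary MycKO and 21 in primary DKO MEFs, with Dkc1, the pseudouridine synthase of H/ACA particles, lowest at -1.29 and -1.82. None was called in primary MlxKO MEFs by limma or edgeR, while 4 had an unadjusted p under 0.05, all lower, and DESeq2 called 3 lower. In immortalized MEFs 6 of the 22 were lower in MycKO and 12 in DKO MEFs, and 14 and 15 without the 2 libraries. Of 18 proteins of snoRNA particles and their assembly, 12 and 16 were lower in primary MycKO and DKO MEFs and 4 in primary MlxKO MEFs, among them the H/ACA proteins Nhp2 at -0.53 and Gar1 at -0.52, none being higher. In immortalized MycKO MEFs 5 of the 18 were lower and 3 higher, among them Pih1d1, an assembly factor, at 0.76 (adjusted p = 0.000756), where 23.5% and 24.4% of all genes were. Without the 2 libraries 4 were lower and 5 higher, where 27% and 27.8% of all genes were. In immortalized MlxKO MEFs 1 was lower and 7 higher, with Gar1 at 0.98, or 1 and 10 without the 2 libraries. In immortalized DKO MEFs 5 were lower and 1 higher, where 8.51% and 10.4% of all genes were.

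The factors of nonsense-mediated decay, which degrades spliced host RNAs, did not move in one direction in primary MEFs. Of 10, 1 was lower (Upf3b at -0.31) and 1 higher (Smg6 at 0.28) in MycKO, and 3 were lower and 2 higher in DKO MEFs, near the shares of 25.5% and 24% over all genes. In immortalized MycKO MEFs 2 were lower and 3 higher, among them Upf1, the helicase at the centre of the pathway, at 0.64 (adjusted p = 0.00185), also near the shares over all genes. Without the 2 libraries 0 were lower and 5 higher, where 27% and 27.8% of all genes were. In immortalized MlxKO MEFs 1 was lower and 4 were higher. Their part in the levels of the hosts was not tested.

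Cell cycle genes and markers of other cells also moved in primary MEFs. All 12 cell cycle genes on the list were lower in primary MycKO and DKO MEFs, and 11 of 12 in MlxKO MEFs, where 1 host was called and was higher. Their summed CPM was 1412 to 1487 in WT, 1148 to 1191 in MlxKO, 819.5 to 964 in MycKO and 649 to 682 in DKO MEFs. All 8 macrophage markers were lower in primary MycKO and DKO MEFs, with sums of 131 to 237 CPM in WT, 131 to 163 CPM in MlxKO, 21.7 to 25.3 CPM in MycKO and 39.6 to 77.5 CPM in DKO MEFs. Fewer cells of a type and less RNA per cell cannot be told apart in these bulk samples, and the part of either group in the primary results was not tested. In the immortalized MEFs no cell cycle gene was called in MycKO or DKO against WT by limma or edgeR, with 2 of 12 at an unadjusted p under 0.05 in each, and DESeq2 called 1 and 2 lower. Without the 2 libraries 1 cell cycle gene was lower and 1 higher in MycKO, and 2 were lower and 1 higher in DKO MEFs. In immortalized MlxKO MEFs 2 were lower and 1 higher with all libraries, and 2 and 5 without the 2.

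Markers of other cells moved beside the hosts too, and their part in the results was not tested. Of the 8 fibroblast markers, 7 were higher and 1 lower in primary MycKO MEFs, and 7 were higher and 0 lower in primary DKO MEFs. Dcn, a matrix proteoglycan, was at 1.08 and 1.27, and the lower one in MycKO was Lum at -0.65 (limma adjusted p = 0.000142). In immortalized MycKO MEFs 3 were lower and 2 higher. The 4 endothelial markers summed to 13.5 to 14.03 CPM in primary WT and at most 7.98 CPM in the other primary genotypes. Kdr was at -1.18, -1.90 and -1.80 in primary MycKO, MlxKO and DKO MEFs. Tek, the other endothelial marker tested, was higher in primary DKO MEFs at 0.78 (limma adjusted p = 0.00419). It was not called in primary MycKO (0.48) or MlxKO (0.0086) MEFs. In immortalized MEFs the endothelial sum was 3.104 to 5.05 CPM in WT and 14.4 to 19.1 CPM in MycKO, where Kdr was at 2.21. The 4 skeletal muscle markers summed to 76.6 to 85.7 CPM in primary WT, 32.1 to 43.0 CPM in MlxKO, 28.1 to 32.7 CPM in MycKO and 76.8 to 83.2 CPM in DKO MEFs, with Des at -1.38 in MycKO and -1.13 in MlxKO MEFs and Myod1 at 0 in all WT, MycKO and DKO libraries. The 4 epithelial markers summed to 16.1 to 19.3 CPM in primary WT and at most 4.36 CPM in the other primary genotypes. The macrophage sum in immortalized MEFs was at most 5.91 CPM in any library, with Adgre1 and Cx3cr1 at 0 in all 12 libraries.

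**Figure D5:**
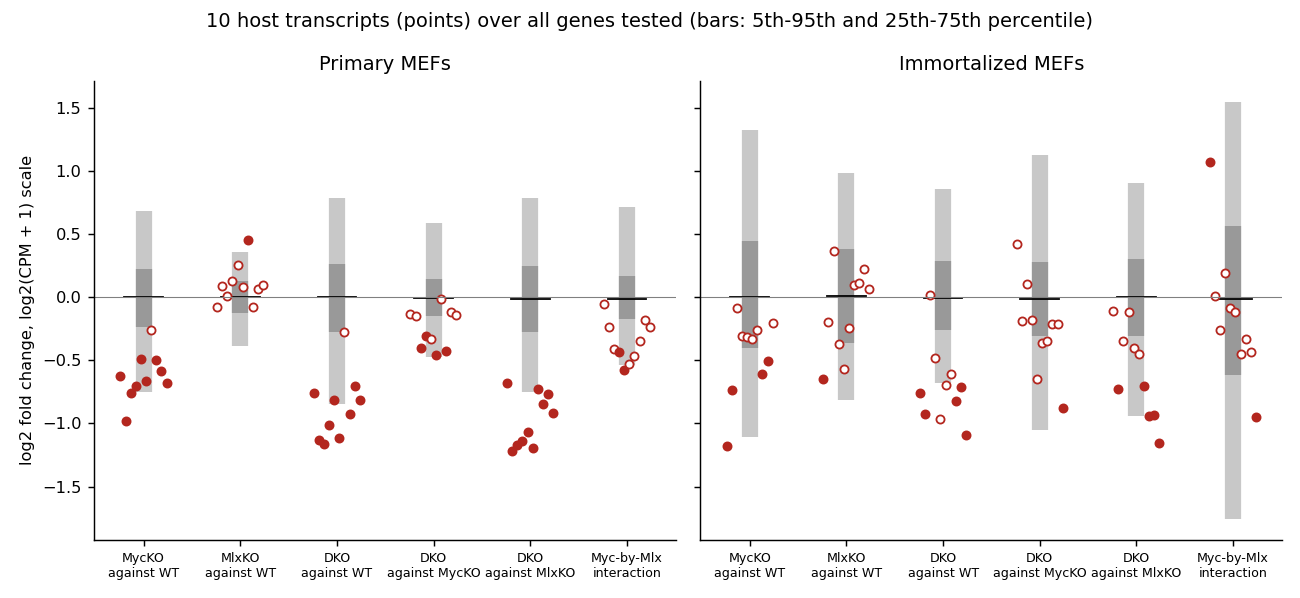
Log2 fold changes (vertical axis, on the log2(CPM + 1) scale) of the 10 hosts as points, filled where the adjusted p was under 0.05, over bars that span the 5th to 95th and 25th to 75th percentile of all genes tested in each comparison. In primary MycKO and DKO MEFs the medians of the hosts are -0.64 and -0.87 and those of all genes 0.00, whereas in MlxKO MEFs the median of the hosts is 0.08.

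The hosts varied in level per length and in how closely they moved together. Per kilobase of the GENCODE canonical transcript, primary WT levels ran from 5.02 CPM for Snhg12, whose annotated canonical transcript is unspliced, to 182 CPM for Gas5. Snhg1 at 42.1 to 54.7 CPM per kilobase and Zfas1 at 43.3 to 49.0 overlapped, as did Snhg5 at 17.2 to 19.2 and Snhg6 at 13.5 to 19.6. Over the 24 libraries, after the mean of each table was subtracted, the correlation of a host with the mean of the other 9 ran from 0.711 for Gas5 to 0.967 for Snhg1. Within primary MEFs it was 0.961 for Gas5 and within immortalized MEFs 0.528, while Snhg1 was at 0.962 and 0.9745. Among 12392 other genes, those most like the mean of the 10 hosts included Rps6 (r = 0.972), Rpl3 (0.968), Rpl5 (0.966) and Rack1 (0.958), all encoding proteins of the ribosome. These libraries share genotype and table, so the correlations describe them and are no test.

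On GRCm39, Gas5 lies at chr1:160861793-160866118. Zfas1 lies at chr2:166903619-166907799 and shares no 50-base stretch of its transcript with another gene, although its name marks it as antisense to Znfx1. Znfx1 was higher in immortalized MycKO MEFs by 1.02 (adjusted p = 0.0218), where Zfas1 was at -0.21 (adjusted p = 0.504). Snhg8 lies at chr3:123301192-123302578 and Snhg6 at chr1:9926809-10014504, and neither shares such a stretch. Snhg15 lies at chr11:6473829-6478870, Snhg1 at chr19:8700319-8703812 and Snhg12 at chr4:132035905-132038762. Of the stretches of Snhg12 11.5%, and of those of Snhg15 4.94%, also occur on the same strand in transcripts of other genes. The gene sharing most stretches was a snoRNA inside the host, Snora16a for Snhg12 and Snora9 for Snhg15.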

How the data were processed

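RNA of 24 samples of primary or immortalized MEFs was sequenced from poly-A libraries made with a directional kit. The authors mapped and counted reads with CLC Genomics Workbench on GRCm39. Whether counting used strand is not given in the sources used here. The deposited signal in each of the 2 tables is headed CPM, but its columns differ in their sums, and all values came out as whole reads within 0.001 after rescaling. Columns name the genotype and a library number, which is not the replicate number of the labels, so each column was assigned to its group only.

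Values were tested per table with limma 3.58.1 in R 4.3.3 (limma-trend on log2(CPM + 1)), for genes that reached 1 CPM in 3 or more of the 12 libraries, with all 4 genotypes in one fit. A gene was called at a Benjamini-Hochberg adjusted p under 0.05. With 3 libraries against 3, an exact permutation test of a single gene cannot go below p = 0.1. Fold changes on this scale understate the change of low genes. On simulated data with 200 genes changed 2-fold, 98.5% (primary, 12944 genes) and 99% (immortalized, 12660 genes) were recovered. These percentages need not hold where the libraries of a group spread widely. In immortalized DKO MEFs Snhg6, at -0.97 against WT (SE 0.408), was not called (limma adjusted p = 0.115). Alternatives were the count tests of edgeR 4.0.16 and of DESeq2 1.42.0 applied to the whole reads, other scalings, pseudocounts and filters, and leaving out libraries.

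Named are all 10 hosts, Myc and Mlx, at most 2 genes that rose and 2 that fell of each related list, genes sharing sequence with a host, and the 5 genes most like the mean of the hosts, except that some items are not reported here. Cell cycle, macrophage, epithelial, endothelial, skeletal muscle and fibroblast lists served as markers. The hosts, the lists and the tests were chosen with earlier results of these data known.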

Additional observations from a re-analysis of the deposited data

Results flagged for a closer look

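In primary MEFs the effect of losing Myc differed with the presence of Mlx for Snhg5, with an interaction of -0.44, and for Snhg6, with an interaction of -0.58 (limma, adjusted p = 0.0173 and 0.0285). In immortalized MEFs it differed for Gas5, at 1.07, and for Zfas1, at -0.95 (adjusted p = 0.00221 and 0.039). Such calls were common in immortalized MEFs, with 23.7% of all genes called in the direction of Gas5 and 23.8% in that of Zfas1. In primary MEFs 6.07% of all genes were called in the direction of Snhg5 and Snhg6. The interactions of these hosts were flagged because the difference between both effects was itself tested. Neither Snhg5 nor Snhg6 passed without primary WT library 2. Zfas1 did not pass without immortalized MycKO library 9 (-0.70, adjusted p = 0.0824). No test for a single far value was run on the hosts' levels within groups of 3.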

How the results depend on the processing

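Over alternatives that kept all libraries or left out both libraries that stand apart, 110 of 124 counts of hosts called stayed within 1.5 times the reported count. The others follow, by setting. Without a filter on low values the count was 0 for primary MlxKO against WT, 2 for primary DKO against MycKO, 1 for the primary interaction, 3 for immortalized DKO against MlxKO and 1 for the immortalized interaction. With a log2 change of at least 0.5 also required it was 0, 0 and 1 for the first 3 of these. With a mean of at least 5 CPM, and with scaling by library totals, it was 2 for primary DKO against MycKO. With only the compared groups in the fit it was 1 for immortalized MycKO and 2 for immortalized DKO against WT. Without both libraries it was 2 for immortalized MlxKO against WT and 2 for DKO against MycKO. The cause was not tested. Scaling by library totals moved the median of all genes to -0.12 in primary DKO against MlxKO, and to 0.16, -0.16 and -0.18 in immortalized MlxKO against WT, DKO against MlxKO and the interaction.

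When single libraries were left out, the count in primary MEFs ranged from 9 to 9 for MycKO against WT, 0 to 1 for MlxKO against WT, 9 to 10 for DKO against WT, 1 to 4 for DKO against MycKO, 10 to 10 for DKO against MlxKO and 0 to 4 for the interaction. In immortalized MEFs it ranged from 1 to 6, 1 to 2, 3 to 8, 0 to 2, 3 to 5 and 1 to 3 in the same order. Immortalized MycKO against WT fell to 1 without WT library 4 or MycKO library 10 or 11. Immortalized DKO against WT rose to 8 without MycKO library 9 and fell to 3 without DKO library 14. Immortalized DKO against MycKO fell to 0 without DKO library 13 or 14, and the call of Zfas1 there was also lost without MycKO library 9.

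Direction turned only for estimates that did not pass the test. Primary Snhg3 in MlxKO MEFs was at -0.0062 with median-ratio scaling and -8.3e-05 with DESeq2, and immortalized Snhg3 in MycKO MEFs at 0.0623 with edgeR and 0.0539 with DESeq2. Without both libraries, immortalized MlxKO estimates of Snhg1 and Snhg5 were 0.0602 and 0.10. With single libraries left out, primary MlxKO estimates ranged from -0.0208 to 0.16 for Snhg1, -0.0179 to 0.15 for Snhg17 and -0.10 to 0.0817 for Snhg3. Immortalized MlxKO estimates ranged from -0.36 to 0.0602 for Snhg1, -0.0371 to 0.32 for Snhg15, -0.61 to 0.10 for Snhg5 and -0.14 to 0.27 for Zfas1. Immortalized MycKO estimates ranged from -0.44 to 0.40 for Snhg3, -0.55 to 0.16 for Snhg5, -0.82 to 0.0799 for Snhg6 and -0.70 to 0.0310 for Snhg8, and the DKO estimate of Snhg3 from -0.18 to 0.24. No paired analysis was possible because the columns carry no replicate number of the labels.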

Other observations

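Other non-coding snoRNA hosts were also measured. Of 9 that passed the filter on low values in primary MEFs, 4 were lower in MycKO and 4 in DKO MEFs, where 21.9% and 25.5% of all genes were. Among them was Snhg16, with log2 fold changes of -0.80 and -0.94. None was called in primary MlxKO MEFs by limma, edgeR or DESeq2, with 1 higher at an unadjusted p under 0.05. In immortalized MlxKO MEFs 1 of 8 was lower and 2 were higher, where 19.9% and 19.1% of all genes were. Without WT library 4 and MycKO library 9 it was 1 and 4, where 27.3% and 26.8% of all genes were. In immortalized DKO MEFs 2 of 8 were lower and 0 higher, where 8.51% and 10.4% of all genes were. In immortalized MycKO MEFs 2 of 8 were lower, where 23.5% of all genes were called lower, Snhg14, the long host of the imprinted Snord115 and Snord116 clusters, at -1.15 (limma adjusted p = 0.00151) and Snhg16 at -0.87 (limma adjusted p = 0.00426).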
